A study of Mus musculus with 20 samples.

Results

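The genes described here encode 7 RNA-binding proteins that shorten the lives of messenger RNAs in T cells: Zfp36, Zfp36l1 and Zfp36l2 (the tristetraprolin family), Zc3h12a and Zc3h12d (the Regnase family) and Rc3h1 and Rc3h2 (the Roquins). They were picked by name from the 23992 gene symbols in the data, with earlier results of these data known. RNA was sequenced from mouse regulatory T cells (Tregs) and CD8+ T cells of spleen and lymph node. Cells were taken unstimulated at 0 h, or after 90 min or 4 hr with 200 nM of IL-2 or of IL-2-REH, an engineered IL-2 variant that acts as a partial agonist of the IL-2 receptor. Each of the 5 Treg groups had 3 libraries, and each of the 5 CD8+ groups had 1 library. Tregs were sorted for GFP from B6-Foxp3EGFP mice, in which the fluorescent protein reports Foxp3. CD8+ T cells were enriched with an isolation kit from C57BL/6J mice, although the strain entry of every sample reads C57BL/6N. No group was kept in culture without cytokine, so in every comparison with unstimulated cells the cytokine and the time in culture cannot be told apart.

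Most cytokine and activation mRNAs of lymphocytes carry destabilizing elements in the region after the stop codon. Proteins of the Zfp36 family bind AU-rich elements and recruit the CCR4-NOT complex, which removes the poly(A) tail. Zc3h12a (Regnase-1) is an endonuclease that cuts stem-loops in mRNAs such as those of Il6, Icos and Rel, Zc3h12d is a related protein, and the Roquins bind stem-loops and also recruit deadenylases. In T cells these proteins restrain cytokine production, and loss of Roquin-1 or Regnase-1 function leads to spontaneous T cell activation in mice. Several members are themselves induced quickly by receptor signals, and Zfp36 is a classical immediate early gene.

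The element that the Zfp36 family recognizes, the nonamer TTATTTATT, was searched for after the stop codon of 1 GENCODE transcript per gene (GRCm38). It occurred in 1227 of 19117 transcripts (6.4%), and in 5 of the 7 members, with 1 copy each: Zfp36, Zfp36l1, Zfp36l2, Rc3h1 and Rc3h2. Zc3h12a and Zc3h12d held none in 856 and 2327 bases. The 5 members with a site had 774, 1835, 1822, 7181 and 2095 bases, in the order named. The 6.4% was not matched for length, and a longer region has more places for a match. The 30-base stretches below show the site in the Zfp36 family, whose transcripts carry the element that their own proteins bind, and in Tnf and Cxcl2, well-known targets with 5 and 4 copies. Capitals mark bases within a nonamer, and T stands for U.
Zfp36: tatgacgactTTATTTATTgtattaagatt
Zfp36l1: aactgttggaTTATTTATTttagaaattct
Zfp36l2: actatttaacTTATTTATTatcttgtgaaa
Tnf: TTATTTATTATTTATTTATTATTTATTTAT
Cxcl2: TTATTTATTtatctatgtatTTATTTATTT
In Zfp36 the stretch spans bases 579 to 608 after the stop codon. The single copy in each family member stands among other bases, whereas the copies in Tnf run into each other. The shorter element ATTTA, which a nonamer always contains, was present in 61.0% of transcripts and in every member, from 2 copies in Zc3h12d to 20 in Rc3h1. Relative to length, Rc3h2 had most of the members (7.16 per kilobase) and Zc3h12d fewest (0.86), beside 10.47 in Tnf and 14.99 in Cxcl2.

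Zfp36 is also shown by the bases before its start. It is a classical immediate early gene and had the largest fold change of a member in the Treg test. That log2 value, -1.99 after 4 hr with IL-2, was close to the -1.98 of Zfp36l2. At 90 min the change of Zfp36l2 was the larger with either cytokine. RefSeq promoters (GRCm38.p6) were found for 6 of the 7 members. The 110 bases upstream of the start of Zfp36, chr7:28379229-28379338 on the minus strand, read as follows, with motif matches in capitals.
Zfp36: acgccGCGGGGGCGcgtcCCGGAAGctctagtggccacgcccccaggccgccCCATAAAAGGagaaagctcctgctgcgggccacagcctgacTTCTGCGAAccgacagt
Counted from the start, the capitals are an EGR motif (GCGGGGGCG, -105 to -97), an ETS motif (CCGGAAG, -92 to -86), a CArG box, the letters bound by SRF (-58 to -49), and a STAT motif (TTCNNNGAA, -17 to -9). Searched on both strands in 32851 promoters of 300 bases, these motifs occurred in 2.9%, 8.9%, 1.6% and 8.3%. None of the other 5 members searched held any of the 4. The Rc3h2 promoter searched (chr2:37422854-37423153) lay wholly within the gene span given below, as did most of that of Zc3h12d (chr10:7832220-7832519). The bases before the span of Rc3h2 were thus not searched, and those before the span of Zc3h12d only in part. An AP-1 motif (TGANTCA, 7.8% of promoters) stood in Zfp36l1 and Rc3h1, and neither a CRE (TGACGTCA, 1.8%) nor a FOXO motif (GTAAACA, 3.6%) was found in a member. A match in these letters does not show that a factor binds there.

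On GRCm38, Zfp36 lies at chr7:28376784-28379228, Zfp36l1 at chr12:80107760-80113013 and Zfp36l2 at chr17:84183924-84187947, each with 2 exons. Zc3h12a lies at chr4:125118414-125127881 and Zc3h12d at chr10:7832323-7870397, each with 6 exons. Rc3h1 (20 exons) lies at chr1:160906411-160974976 and Rc3h2 (21 exons) at chr2:37368861-37424370. Exons of Zfp36 and Zfp36l2 overlap antisense genes (Gm44710 and AC132455.1), and those of Zfp36l1 overlap a long non-coding RNA on the other strand (Gm26669). The sources used here do not say whether strand was used in counting, so reads of these genes and of their partners cannot be told apart.

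Reads on genes numbered 20201392 to 63903764 per Treg library and 38201667 to 45189835 per CD8+ library, and every member had at least 1534 reads in each. Treg libraries with the same replicate number deviated together, and the unstimulated replicate 1 stood apart from the other two for several members, so counts that rest on it are also given without it. The labels held against markers: Foxp3 lay at 65.2 to 252 RPKM (a level that corrects read numbers for exon length and sequencing depth) in Tregs and at 0.482 to 0.999 in CD8+ cells, and Cd8a at 0.0879 to 1.84 and 103 to 256 RPKM. Macrophage and myeloid markers were present at low levels, summing to 7.66 to 58.3 RPKM per Treg library over 5 genes. In RNA from whole samples, fewer cells of a type and less RNA per cell cannot be told apart.

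The Zfp36 family made up most of the members' RNA. In unstimulated Tregs the levels were 224 ± 110 RPKM for Zfp36, 223 ± 126 for Zfp36l2 and 184 ± 20.8 for Zfp36l1 (mean ± standard deviation, n = 3), and the libraries of the 3 genes overlapped. Next came Zc3h12a with 27.6 ± 7.39 RPKM and Zc3h12d with 23.6 ± 5.64 RPKM, whose libraries overlapped with each other but not with those of the Zfp36 family. Rc3h1 (11.8 ± 2.20 RPKM) and Rc3h2 (9.07 ± 1.26 RPKM) were lowest, and their libraries met at 10.1 and 9.85 RPKM without overlapping. The order of the 3 families was the same in the unstimulated CD8+ library, where Zfp36l2 led with 206 RPKM, ahead of Zfp36 (86.5), Zfp36l1 (78.3), Zc3h12a (17.7), Zc3h12d (12.3), Rc3h1 (8.99) and Rc3h2 (6.62).

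**Figure D1:**
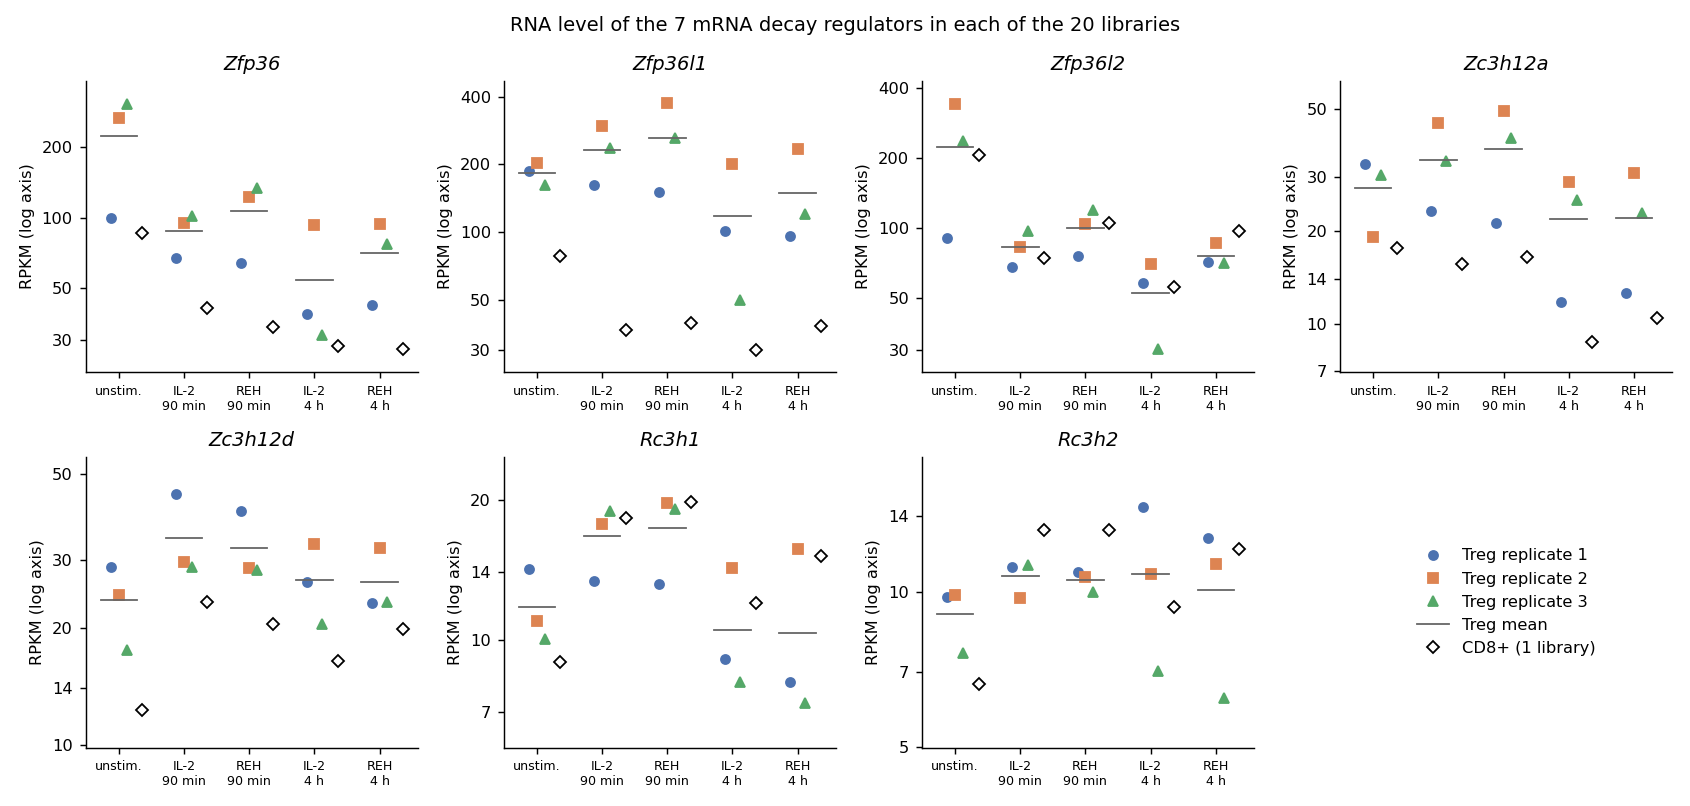
Level of each member (RPKM, log axis, a scale of its own in each panel) in every library, with Treg replicates 1, 2 and 3 as circles, squares and triangles, their mean as a line and the single CD8+ library as an open diamond. Zfp36 and Zfp36l2 were highest in unstimulated Treg replicates 2 and 3, and replicate 1 lay well below both.

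Zfp36 encodes tristetraprolin, the founding member of its family. Unstimulated Treg libraries held 100, 266 and 307 RPKM in replicates 1, 2 and 3. After 90 min with IL-2 the levels were 67.6, 94.9 and 101 RPKM, and after 4 hr 38.7, 92.9 and 31.7 RPKM. With IL-2-REH they were 64.1, 122 and 134 RPKM at 90 min and 42.5, 93.7 and 76.9 RPKM at 4 hr. Each stimulated library lay below the unstimulated library of its number at both times. The groups overlapped with the unstimulated group at 90 min, through replicate 1, and did not at 4 hr. The share of all genes whose groups lay apart was not counted, here or in the comparisons below.

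Zfp36l2, a paralog important in lymphocyte development and quiescence, followed a like course. Its levels were 90.7, 342 and 237 RPKM in unstimulated Tregs. They were 68.3, 82.5 and 97.4 RPKM after 90 min and 58.2, 70.1 and 30.1 RPKM after 4 hr with IL-2. With IL-2-REH they were 75.5, 104 and 119 RPKM and then 71.3, 86.1 and 70.8 RPKM. Again every stimulated library lay below its own unstimulated library, and the groups were apart only at 4 hr.

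Zfp36l1, the third member of the family, had no shared direction at 90 min. The unstimulated libraries held 186, 203 and 161.7 RPKM. At 90 min, replicates 2 and 3 were higher under IL-2 (298 and 236 RPKM) and under IL-2-REH (375 and 263 RPKM), while replicate 1 was lower (162.7 and 151 RPKM). At 4 hr the levels were 101, 202 and 50.2 RPKM with IL-2 and 96.2, 234 and 121 RPKM with IL-2-REH. The groups overlapped with the unstimulated group in all 4 comparisons.

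After 4 hr with IL-2, 2 of the 7 members passed the test in Tregs, Zfp36 and Zfp36l2, and both fell (edgeR, adjusted p under 0.05 over 15009 genes, of which 2.27% passed in this comparison). Zfp36 fell by 1.99 ± 0.48 on the log2 scale (± standard error), to 0.251 of its unstimulated level, with an adjusted p of 0.0447. Zfp36l2 fell by 1.98 ± 0.39, to 0.254 of its level, with an adjusted p of 0.0200. Blocked on the replicate number, the declines were 1.91 and 1.86 with adjusted p-values of 0.0024 and 0.00734, and 6.92% of all genes passed. The log2 fold change of Zfp36l1 was -0.63 (95% interval -1.62 to 0.35, adjusted p = 0.502).

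The call at 4 hr rested on most of the libraries. No member passed without all of replicate 2 or all of replicate 3, without unstimulated replicate 2 or 3, or without IL-2 4 hr replicate 3, which had the fewest reads and the lowest Zfp36 and Zfp36l2 values. Without IL-2 4 hr replicate 1 Zfp36l2 alone passed, and without replicate 2 of that group Zfp36 alone passed. Both genes stayed lower in every fit that left out a library or a replicate number, by 1.41 to 2.49 (Zfp36) and 1.63 to 2.43 (Zfp36l2) on the log2 scale. Without unstimulated replicate 1 and with the block, a choice made after seeing the data, the same 2 members passed, with log2 fold changes of -2.03 and -2.20, and 21% of genes passed. They also passed without that library and with no block, where 8.87% of genes did.

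Under IL-2-REH for 4 hr, values were -1.64 ± 0.47 for Zfp36 (adjusted p = 0.155) and -1.50 ± 0.39 for Zfp36l2 (adjusted p = 0.129) on the log2 scale. No member passed, at a background of 0.313% of genes. With the replicate block both passed (log2 fold changes of -1.60 and -1.41, adjusted p = 0.0106 and 0.0426), as did 3.03% of genes. Without unstimulated replicate 1 both passed as well, with no block (6.93% of genes) and with it (16.7%).

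At 90 min no member passed with IL-2 (0.853% of genes passed) or with IL-2-REH (0.0933% of genes), and none passed with the replicate block (1.83% and 0.213% of genes). With IL-2 the log2 fold changes were -1.15 ± 0.47 for Zfp36 (adjusted p = 0.301) and -1.20 ± 0.38 for Zfp36l2 (adjusted p = 0.192). With IL-2-REH they were -0.86 ± 0.46 (adjusted p = 0.488) and -0.94 ± 0.38 (adjusted p = 0.404). The counts depended on replicate 1. Without unstimulated replicate 1 and with no block, 2 members passed with each cytokine, Zfp36l2 (lower) and Zc3h12d (higher), where 12.9% (IL-2) and 12.1% (IL-2-REH) of all genes passed. Without replicate 1 in all groups, 5 members passed under IL-2 (17.3% of genes) and 3 under IL-2-REH (15.7%). With unstimulated replicate 1 alone left out and the block in addition, 5 members passed with each cytokine, Zfp36 and Zfp36l2 lower and Zc3h12a, Zc3h12d and Rc3h1 higher, but then 26.9% (IL-2) and 25.4% (IL-2-REH) of all genes passed too.

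**Figure D2:**
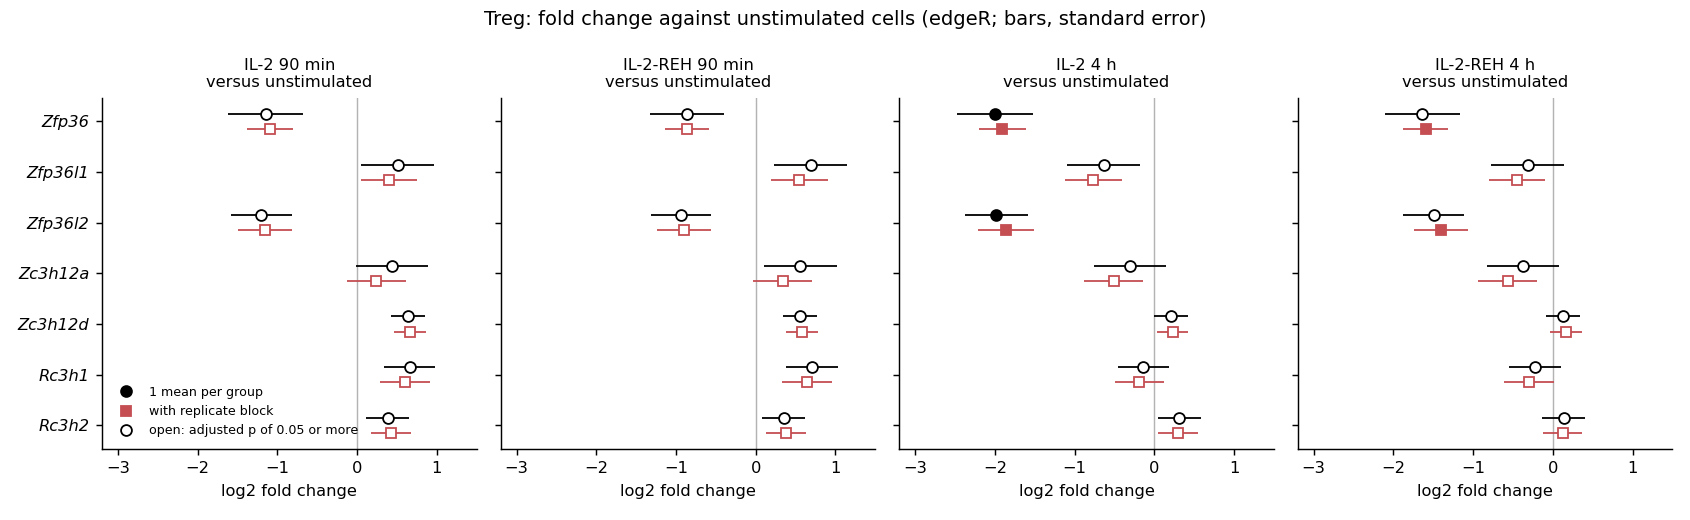
Log2 fold change (edgeR, bars show the standard error) of each member against unstimulated Tregs, with 1 mean per group (black circles) and blocked on the replicate number (red squares). Filled symbols have an adjusted p under 0.05: Zfp36 and Zfp36l2 at 4 hr, with IL-2 in both fits and with IL-2-REH in the fit with the block.

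Other measures moved with the Zfp36 and Zfp36l2 result. The summed level of 18 immediate early genes was 2243, 1705 and 2656 RPKM in unstimulated Tregs and 625, 1565 and 1225 RPKM after 4 hr with IL-2. All 5 macrophage and myeloid markers had a lower mean after 4 hr with either cytokine, and their sum went from 13.5, 58.3 and 49.3 RPKM in unstimulated replicates 1, 2 and 3 to 7.66, 26.0 and 19.5 RPKM with IL-2. None of the 5 was at 0 in any Treg library, and Lyz2 was the most abundant (9.74 to 36.4 RPKM unstimulated). None of the 5 passed the test after 4 hr with IL-2 (2.27% of all genes did), and 3 did with the block (6.92% of all genes), all lower. Markers of T cells themselves were lower too: the 4 measured summed to 601, 868.3 and 936 RPKM in unstimulated Tregs and to 434, 412 and 355 RPKM after 4 hr with IL-2, and did not overlap. Of these, Cd3g fell (-1.11, adjusted p = 0.0357). Of 6 Treg markers, Cd4 fell (-0.99, adjusted p = 0.00875), while Foxp3 (1.40, adjusted p = 0.011) and Il2ra (1.15, adjusted p = 0.0407) rose. The 6 summed to 1189, 852 and 810 RPKM in unstimulated Tregs and to 1141, 1394 and 907 RPKM after 4 hr with IL-2. Summed NK cell markers lay at 0.219 to 6.46 RPKM before and 0.294 to 4.25 after, and erythroid markers at 6.28 to 201 and 4.65 to 128. Their part in the result was not tested.

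The makeup of the family differed between libraries. Zfp36l1 held 49.4% of the summed family RPKM in unstimulated Treg replicate 1 and 25.0% and 22.9% in replicates 2 and 3. In the 12 stimulated Treg libraries it held 44.8% to 62.7%, the largest share of the 3 in every one. The family sum was 377, 811 and 706 RPKM in unstimulated Tregs and 198, 365 and 112 RPKM after 4 hr with IL-2. In the 5 CD8+ libraries Zfp36l2 had the largest share, 48.8% to 59.6%.

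**Figure D3:**
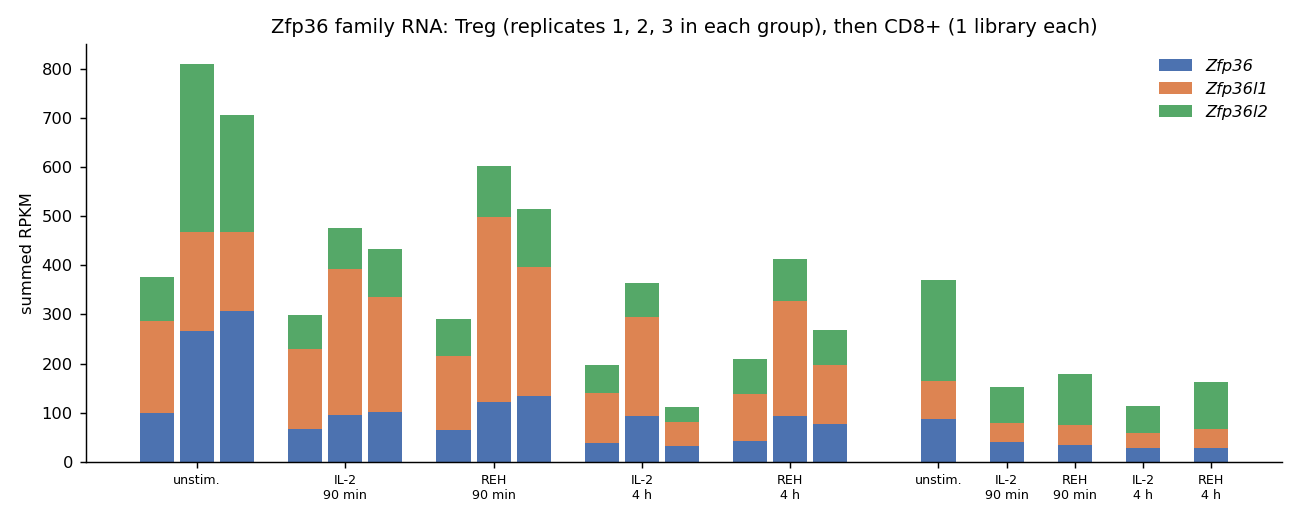
Summed RPKM of Zfp36, Zfp36l1 and Zfp36l2 in each library, stacked by gene, with the 3 Treg replicates of each group side by side, followed by the 5 CD8+ libraries. Every stimulated library had a lower sum than its own unstimulated library, and Zfp36l1 was the largest part in the stimulated Treg libraries and Zfp36l2 in the CD8+ libraries.

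Zc3h12a, encoding Regnase-1, had no shared direction among the Treg replicates against unstimulated cells. Unstimulated levels were 33.1, 19.2 and 30.5 RPKM. After 90 min they were 23.3, 45.1 and 34.02 RPKM with IL-2 and 21.4, 49.5 and 40.2 RPKM with IL-2-REH, lower in replicate 1 and higher in replicates 2 and 3. After 4 hr they were 11.7, 29.0 and 25.3 RPKM with IL-2 and 12.5, 30.95 and 22.9 RPKM with IL-2-REH, higher only in replicate 2. The log2 fold changes were 0.44 ± 0.45 and 0.56 ± 0.45 at 90 min and -0.31 ± 0.45 and -0.37 ± 0.45 at 4 hr, with adjusted p-values of 0.643 to 0.784.

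Zc3h12d was higher in all 3 pairs at 90 min. Its levels were 28.8, 24.4 and 17.6 RPKM in unstimulated Tregs, 44.2, 29.5 and 28.8 RPKM after 90 min with IL-2 and 40.0, 28.5 and 28.2 RPKM with IL-2-REH. The stimulated groups still overlapped with the unstimulated group through replicate 1. The log2 fold changes of 0.64 ± 0.21 and 0.56 ± 0.21 did not pass (adjusted p = 0.216 and 0.4). At 4 hr the levels were 26.3, 32.97 and 20.5 RPKM with IL-2 and 23.3, 32.2 and 23.3 RPKM with IL-2-REH, with log2 fold changes of 0.21 ± 0.21 and 0.13 ± 0.21.

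Rc3h1, encoding Roquin-1, lay at 14.3, 11 and 10.1 RPKM in unstimulated Tregs. After 90 min replicates 2 and 3 were higher, with 17.8 and 19.0 RPKM (IL-2) and 19.8 and 19.2 RPKM (IL-2-REH), and replicate 1 held 13.4 and 13.2 RPKM. After 4 hr the values were 9.13, 14.3 and 8.14 RPKM with IL-2 and 8.11, 15.7 and 7.33 RPKM with IL-2-REH. The log2 fold changes of 0.66 ± 0.33 and 0.71 ± 0.33 at 90 min did not pass (adjusted p = 0.387 and 0.435), and those at 4 hr were -0.14 ± 0.32 and -0.23 ± 0.32.

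Rc3h2, the paralog that can stand in for Roquin-1, had the narrowest range of the members. Its 15 Treg libraries lay between 6.23 and 14.6 RPKM. The log2 fold changes against unstimulated cells were 0.38 and 0.35 at 90 min and 0.32 and 0.14 at 4 hr, with adjusted p-values of 0.560 to 0.873. At 90 min with IL-2-REH the groups did not overlap, although the adjusted p was 0.628. The levels were 10.9, 10.7 and 9.99 RPKM, against 9.75, 9.85 and 7.61 RPKM unstimulated. Replicate 3 was lowest and replicate 1 highest at 4 hr with either cytokine, with 7.02 and 14.6 RPKM for IL-2.

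IL-2-REH was compared with IL-2 to ask whether the partial agonist leaves the members at other levels than the full agonist. No member passed at 90 min (0.0133% of genes passed) or at 4 hr (0.0267%), and every adjusted p rounded to 1.0. The intervals were wide for the Zfp36 family. At 4 hr the difference of Zfp36l2 was 0.48 (95% interval -0.33 to 1.30), and the groups did not overlap (58.2, 70.1 and 30.1 RPKM with IL-2, 71.3, 86.1 and 70.8 RPKM with IL-2-REH). That of Zfp36 was 0.36 (-0.63 to 1.35), with overlapping groups. Both were higher with IL-2-REH in 3 of 3 pairs. That of Zfp36l1 was 0.32 (-0.66 to 1.30). At 90 min they were 0.27 (-0.54 to 1.08), 0.29 (-0.70 to 1.28) and 0.18 (-0.80 to 1.16). For Zc3h12d the interval was -0.54 to 0.38 at both times, and for Rc3h2 it was -0.61 to 0.54 at 90 min and -0.76 to 0.40 at 4 hr. In the 4 hr pair of replicate 3 the Zfp36 family was 1.21 to 1.25 higher with IL-2-REH (log2 ratio of RPKM + 1), against -0.07 to 0.29 in the other pairs.

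Between 90 min and 4 hr no member passed with IL-2 or with IL-2-REH, and neither did any gene (0% in both, although 2551 and 2188 genes had an unadjusted p under 0.05). The replicate block called 58 and 6 genes, DESeq2 383 and 253, and a fit without replicate 1 625 and 574, with no member among them in any. The largest differences among the members with IL-2 were those of Zfp36l1 (-1.14, adjusted p = 0.253), Zfp36 (-0.85, 0.359) and Rc3h1 (-0.80, 0.255). With IL-2-REH they were those of Zfp36l1 (-1.004, adjusted p = 0.338), Rc3h1 (-0.93, 0.264) and Zc3h12a (-0.93, 0.362). The Zfp36 family, Zc3h12a and Rc3h1 were lower at 4 hr in every pair with either cytokine, and Zc3h12d and Rc3h2 were not. The change of the difference between the cytokines from 90 min to 4 hr lay between -0.19 and 0.22 for the members and passed for no gene (0%; 47 genes had an unadjusted p under 0.05, and the replicate block and DESeq2 also called 0).

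In CD8+ T cells there was 1 library per group, so values are given without a test, as log2 ratios of RPKM + 1 counted past an absolute value of 1. After 90 min with IL-2 the Zfp36 family was lower past that limit, 3 of 7 members, at a background of 7.24% of 10021 genes. Zfp36 went from 86.5 to 41.3 RPKM (log2 ratio -1.05), Zfp36l1 from 78.3 to 36.9 RPKM (-1.06) and Zfp36l2 from 206 to 74.5 RPKM (-1.46). After 4 hr the same 3 were at 28.5, 30.01 and 55.8 RPKM (-1.57, -1.35 and -1.87), at a background of 4.71%. No other member passed the limit with IL-2.

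With IL-2-REH at 90 min, the CD8+ library held 34.3 RPKM of Zfp36 (-1.31), 39.6 of Zfp36l1 (-0.97) and 105 of Zfp36l2 (-0.97), and Rc3h1 was at 19.9 RPKM against 8.99 (1.06). Thus 1 member was lower and 1 was higher past the limit, at a background of 8.57% and a median over all genes of -0.12. At 4 hr the Zfp36 family was lower again, 3 of 7 at a background of 6.11%, with 27.5, 38.3 and 97.0 RPKM (-1.62, -1.01 and -1.08). The sums of immediate early genes and of T cell, myeloid and NK cell markers were also below their unstimulated values at both times with IL-2-REH. Directly between the cytokines no member passed the limit at 90 min (0.868% of genes did) or at 4 hr (2.23%). The member that differed most was Zfp36l2, with 105 RPKM under IL-2-REH and 74.5 under IL-2 at 90 min (0.49) and 97.0 and 55.8 RPKM at 4 hr (0.79).

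The Regnases and Roquins of CD8+ cells went other ways. Zc3h12a was 15.7 and 16.5 RPKM at 90 min, near the unstimulated 17.7, and 8.68 and 10.5 RPKM at 4 hr (IL-2 and IL-2-REH). Zc3h12d was at 12.3 RPKM unstimulated and at 23.4 and 20.5 RPKM at 90 min. Rc3h1 (8.99 to 18.4 and 19.9 RPKM) and Rc3h2 (6.62 to 13.2 and 13.2 RPKM) were both higher in value at 90 min, with log2 ratios of 0.89 to 1.06. At 4 hr Rc3h1 was at 12.03 and 15.2 RPKM and Rc3h2 at 9.34 and 12.1 RPKM.

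**Figure D4:**
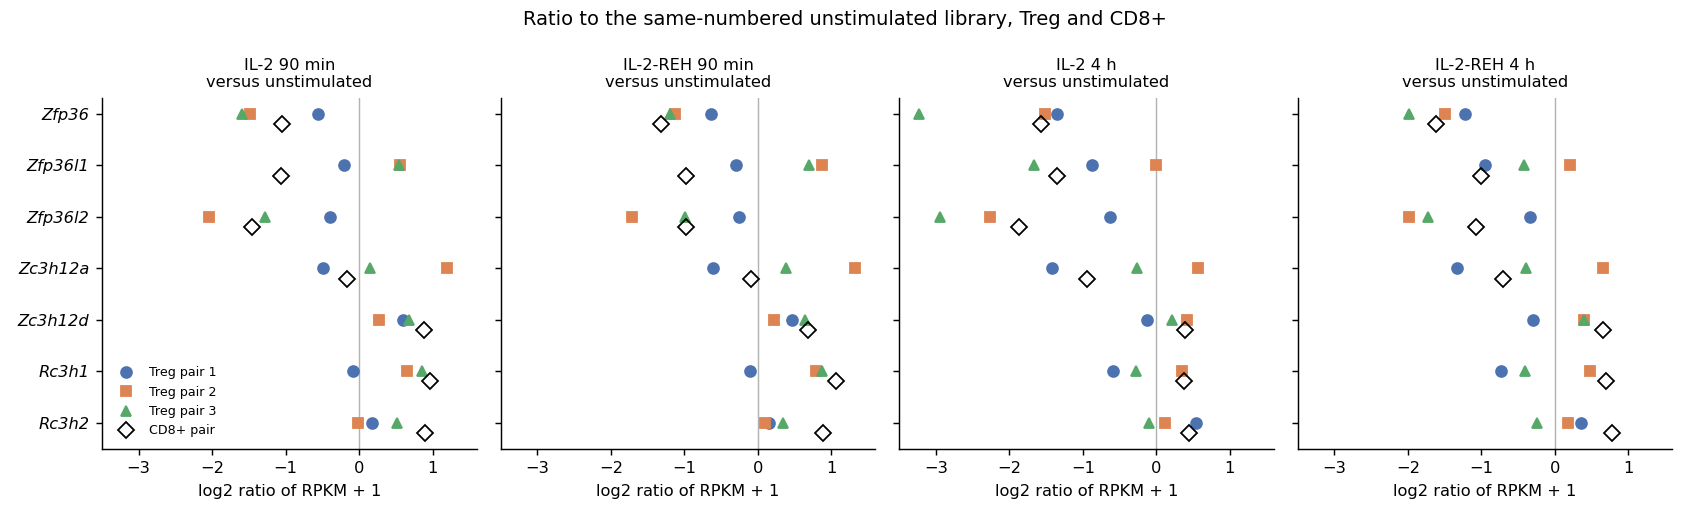
Log2 ratio of RPKM + 1 to the same-numbered unstimulated library, for the 3 Treg pairs (filled symbols) and the CD8+ pair (open diamonds). Zfp36 and Zfp36l2 lay below 0 in all 4 pairs of every panel, and for Zfp36l1 the CD8+ pair lay below 0 in every panel while Treg pairs 2 and 3 lay above it at 90 min.

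Set beside the Treg pairs, the CD8+ ratio of Zfp36l2 lay inside the range of the 3 Treg pairs in all 4 comparisons with unstimulated cells, and that of Zfp36 in 3 of them. Zfp36l1 stood outside it in 3 of 4. At 90 min with IL-2, for instance, its Treg pairs were -0.20, 0.55 and 0.54 and its CD8+ pair was -1.06. Rc3h1 was above the Treg range in all 4 (0.96 in CD8+ cells against -0.08, 0.65 and 0.85 in Tregs at 90 min with IL-2). Zc3h12d and Rc3h2 were above it at 90 min with either cytokine and at 4 hr with IL-2-REH. Zc3h12a was inside it in all 4. The share of all genes with a CD8+ ratio outside the Treg range was not counted. All 4 CD8+ ratios of a gene share the same unstimulated library, so the 4 comparisons are not separate observations. With 1 CD8+ library a group, none of these differences between the cell types was tested.

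In level, 4 of the 7 members, Zfp36, Zfp36l1, Zc3h12a and Zc3h12d, were lower in the CD8+ library than in all 3 Treg libraries in each of the 5 conditions. Of 10457 genes with a mean of at least 1 RPKM, 14.2% had that pattern. Zfp36l1 had the widest gap, with a log2 ratio of Treg mean to CD8+ of 1.22 in unstimulated cells and 1.94 to 2.70 in stimulated cells. The ratio was 0.91 to 1.61 for Zfp36, 0.62 to 1.25 for Zc3h12a and 0.38 to 0.89 for Zc3h12d. Zfp36l2 was inside the Treg range in 4 of 5 conditions (-0.35 to 0.15), and Rc3h1 and Rc3h2 lay on either side (-0.51 to 0.35 and -0.30 to 0.40). The Treg and CD8+ cells came from different mouse strains and were isolated in different ways, which cannot be told apart from cell type.

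The members hand their targets to a common decay machinery. None of 19 deadenylation genes (the CCR4-NOT and PAN2-PAN3 subunits, Parn and the Tob and Btg adaptors), 12 decapping genes, 16 exosome genes or 9 other binders of AU-rich elements passed the test in any comparison with unstimulated cells or between the cytokines, with or without the replicate block. Over all genes, 0.0133% to 2.27% passed in these comparisons without the block. With it, 0.213% to 6.92% passed against unstimulated cells, and between the cytokines 2 genes passed at 90 min and 10 at 4 hr. In the fit without unstimulated replicate 1 (no block), 0 to 2 deadenylation and 0 to 1 decapping genes passed in a comparison with unstimulated cells, beside 6.93% to 12.9% of all genes. The median log2 fold change of the deadenylation list was 0.23 after 90 min and -0.31 after 4 hr with IL-2, beside -0.06 and 0.00 over all genes. Between 90 min and 4 hr its median change was -0.54 (IL-2) and -0.49 (IL-2-REH), beside 0.03 and 0.04 over all genes. There Btg1, an antiproliferative adaptor of the deadenylases, had the smallest p of the list with IL-2 (log2 fold change -1.10 ± 0.26, adjusted p = 0.166, and 0.069 with the block).

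Among partners and regulators of the members, 13 of 14 genes were tested. Over all genes, 0.853% passed after 90 min with IL-2, and 2.27% after 4 hr (6.92% with the block). Arid5a, which protects mRNAs such as that of Il6 from Regnase-1, rose after 90 min with IL-2, from 19.8, 13.9 and 13.9 RPKM to 39.9, 45.8 and 37.1 RPKM (log2 fold change 1.48 ± 0.26, adjusted p = 0.0135), and it was the only one to pass in a comparison with unstimulated cells. The block also called it after 4 hr with IL-2 (0.92, adjusted p = 0.0458), and without unstimulated replicate 1 (no block) 0 to 4 of the list rose in a comparison, beside 6.93% to 12.9% of all genes passing. With IL-2-REH its levels were 24.5, 30.3 and 28.5 RPKM (0.93, adjusted p = 0.380). Its level was lower with IL-2-REH than with IL-2 in value at 90 min (-0.55) and at 4 hr (-0.70), with an adjusted p of 1.0 at both. In CD8+ cells Arid5a was at 18.4 RPKM unstimulated, 35.3 after 90 min with IL-2 and 24.9 under IL-2-REH.

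Of 25 mRNAs known as targets of the members, 23 were tested and 9 of the 25 carried a nonamer. After 4 hr with IL-2, 1 rose and 1 fell (2.27% of all genes passed), and with the replicate block 3 rose and 3 fell (6.92%). Cxcl2, a neutrophil chemokine, fell from 4.56, 2.72 and 6.00 RPKM to 0.938, 1.07 and 0.783 RPKM (log2 fold change -2.22 ± 0.33, adjusted p = 0.0036). It was also the target that fell with IL-2-REH at 4 hr, to 0.995, 0.950 and 0.915 RPKM (-2.25, adjusted p = 0.0133), where the block called 2 lower. There 0.313% of all genes passed, and 3.03% with the block. Myeloid markers also had lower means after 4 hr with either cytokine, and their part in the fall of Cxcl2 was not tested. Il2ra, the alpha chain of the IL-2 receptor, rose after 4 hr with IL-2 from 62.7, 117 and 91.5 RPKM to 197, 282 and 101 RPKM (1.15 ± 0.27, adjusted p = 0.0407). At 90 min none passed. Myc had the smallest p with IL-2 (15.2, 35.9 and 27.1 RPKM unstimulated, 53.8, 148 and 92.4 RPKM after, 2.13 ± 0.48, adjusted p = 0.0606, and 0.000198 with the block, where 2 targets rose and 1.83% of all genes passed). When unstimulated replicate 1 was left out (no block), 3 to 7 targets rose and 0 to 2 fell in a comparison with unstimulated cells, where 6.93% to 12.9% of all genes passed.

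The immediate early genes that passed, a class to which Zfp36 belongs, all fell. Of 18, 1 fell after 90 min and 4 after 4 hr with IL-2, none rose, and under IL-2-REH the counts were 0 and 2. Over all genes, 0.853% and 2.27% passed with IL-2 and 0.0933% and 0.313% with IL-2-REH. With the block 3 and 5 fell under IL-2 and 0 and 6 under IL-2-REH, and again none rose. The block called 1.83% and 6.92% of all genes with IL-2 and 0.213% and 3.03% with IL-2-REH. Dusp1, a phosphatase that shuts off MAP kinases, went from 221, 214 and 315 RPKM to 69.8, 90.3 and 65.0 RPKM after 90 min with IL-2 (-1.60 ± 0.34, adjusted p = 0.0447). After 4 hr it was at 32.1, 72.2 and 31.4 RPKM (-2.45, adjusted p = 0.00337). Fos (-2.66), Junb (-1.47) and Dusp2 (-1.37) also fell after 4 hr with IL-2, with adjusted p-values of 0.0335 to 0.0367. With IL-2-REH, Dusp1 (-2.15) and Junb (-1.78) fell after 4 hr. In CD8+ cells Fos went from 116 RPKM to 3.54 and 3.20 RPKM after 90 min, under IL-2 and IL-2-REH in that order. Leaving out unstimulated replicate 1 (no block) gave other counts: 1 to 6 immediate early genes fell and 1 to 3 rose in each comparison, at the same 6.93% to 12.9% of all genes.

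**Figure D5:**
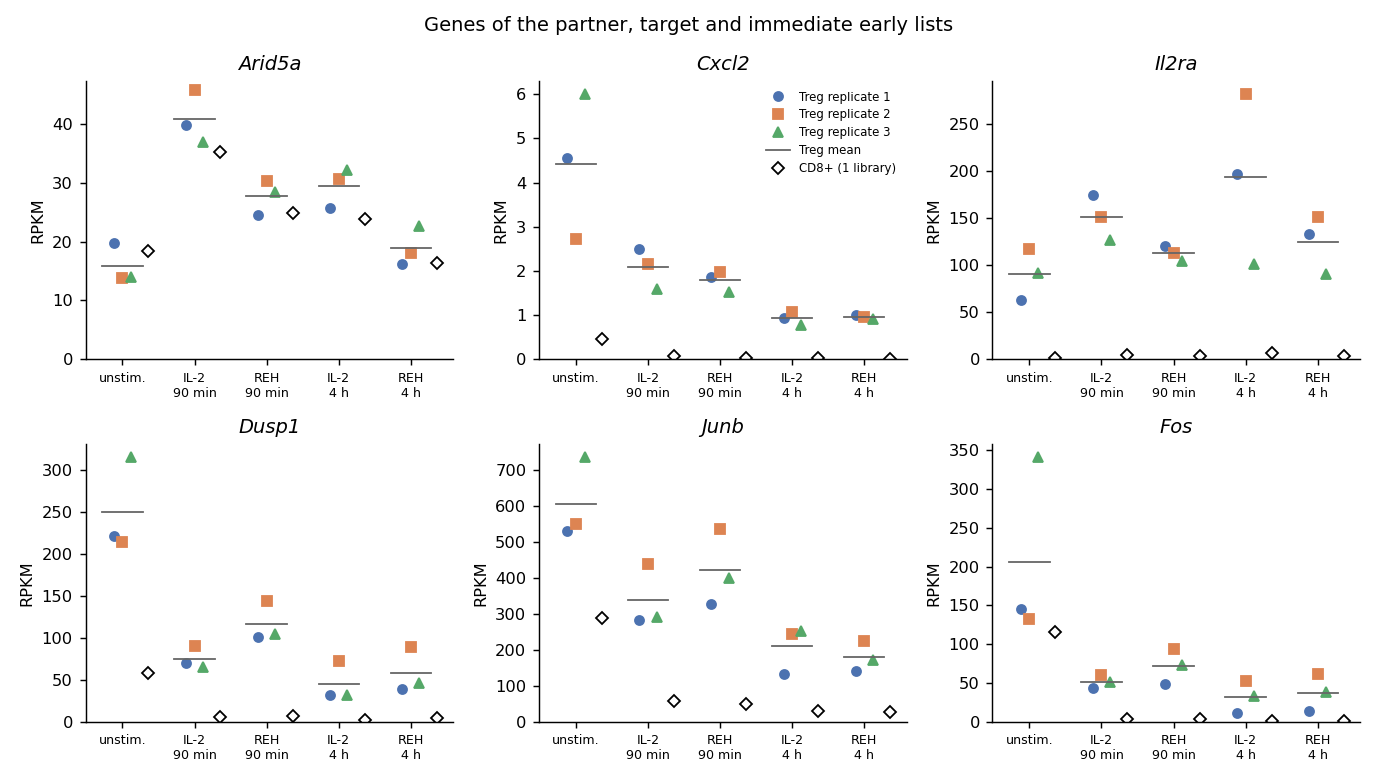
RPKM of Arid5a, Cxcl2, Il2ra, Dusp1, Junb and Fos in every library, with symbols as in the plot of the members by library and all axes from 0. By group mean, Dusp1, Junb and Fos were highest in unstimulated Tregs, Arid5a was highest after 90 min with IL-2, and Cxcl2 and Il2ra were far lower in CD8+ cells than in Tregs.

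Across all 20 libraries, the level of each member was set beside those of 10456 other genes by Pearson's r of log2(RPKM + 1), as a description. The points share replicate numbers and hold both cell types. Zfp36 was most like Zmiz1 (r = 0.947), Siah2 (0.938) and Cybb (0.933), the last a subunit of the phagocyte oxidase. Zfp36l1 was most like Pnrc1 (0.958), Cd40lg (0.954) and Runx1 (0.947), and Zfp36l2 like Inpp1 (0.906), Ucp2 (0.901) and Prrt1 (0.899). Zc3h12a was nearest to the clock gene Per1 (0.956), Nfkbid (0.953) and Tgif2 (0.946), Zc3h12d to Rtn4 (0.945), Mpp5 (0.929) and Mkln1 (0.926), Rc3h1 to Sos1 (0.971), Usp37 (0.966) and Prkx (0.958), and Rc3h2 to Nckap1 (0.884), Ccdc127 (0.860) and G2e3 (0.855). Among the members, the highest values were those of Zfp36l1 with Zc3h12a (0.83) and with Zfp36 (0.77), and of Zfp36 with Zfp36l2 (0.74), while Zfp36l1 and Zfp36l2 had 0.30.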

How the data were processed

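For each of 20 libraries, the authors deposited read counts on the exons of RefSeq transcripts (mm10) and RPKM values, that is, counts scaled to exon length and mapped reads. The submitters' processing notes name Bowtie2 2.2.6, TopHat2 2.1.1, SAMtools 0.1.8, bedtools 2.25.0 and edgeR. For each symbol the transcript with the most reads was used. Treg counts were tested in R 4.3.3 with edgeR 4.0.16 (TMM, filterByExpr, quasi-likelihood test, 1 mean per group over 15 libraries, 15009 genes), with Benjamini-Hochberg adjustment over all genes and calls at an adjusted p under 0.05. The fit was tested on simulated data with changes in the IL-2 4 hr Treg group and no effect of the replicate number. It recovered 27% of log2 changes of 1 and 88% of log2 changes of 2 (24% and 84% with the block). CD8+ groups had 1 library, so ratios of RPKM + 1 were taken where the mean RPKM was 1 or more. Same-numbered Treg libraries of different groups deviated from their group means together (30 correlations across genes, 0.121 to 0.839, mean 0.538), so the replicate numbers of the labels were taken to pair them. That replicates came from separate animals is not given in the sources used here, so p-values measure the spread between these libraries.

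Members and gene lists were chosen with earlier results of these data known. From each list, at most 4 genes that passed with the smallest p were named in a comparison, or 2 where none passed, and for each member the 3 genes with the highest r. Alternatives were the replicate block, limma 3.58.1 on the log2 of RPKM + 1, DESeq2 1.42.0, a pseudocount of 0.1, other filters, only the groups compared, a threshold of 2 on log2 ratios, and fits without each library. Python 3.11.15 with pandas 2.3.3 and matplotlib 3.10.9 was used for tables and figures.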

Additional observations from a re-analysis of the deposited data

How the results depend on the processing

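Counts of members passing in Tregs varied with the libraries used. Leaving out replicates gave 0 to 5 members after 90 min with IL-2, 0 to 3 after 90 min with IL-2-REH, and 0 to 2 after 4 hr with either cytokine. The counts of 5 and 3 came from leaving out replicate 1, where 17.3% and 15.7% of all genes passed. DESeq2 gave 1 member at 90 min with IL-2 and 2 at 4 hr with IL-2-REH, the replicate block gave 2 at 4 hr with IL-2-REH, and a fit of only the groups compared gave 0 at 4 hr with IL-2. Without unstimulated replicate 1 and with the block (chosen after seeing the data) the counts were 5 and 5 at 90 min and 2 and 2 at 4 hr, beside 16.7% to 26.9% of all genes. The block changed no other call of a member. It raised the genes passing in all from 341 to 1038 (IL-2) and from 47 to 455 (IL-2-REH) at 4 hr, and from 128 to 275 and from 14 to 32 at 90 min, where DESeq2 gave 1010, 583, 559 and 111. A threshold of 2 on CD8+ log2 ratios left 0 members past it in each of the 4 comparisons with unstimulated cells.

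Log2 fold changes reversed only where they were small and had not passed. Over fits without 1 library or replicate number they ranged, at 4 hr with IL-2, from -0.71 to 0.22 for Zc3h12a and from -0.45 to 0.19 for Rc3h1. With IL-2-REH at 4 hr the ranges were -0.73 to 0.01 (Zfp36l1), -0.88 to 0.15 (Zc3h12a), -0.05 to 0.48 (Zc3h12d), -0.71 to 0.17 (Rc3h1) and -0.09 to 0.36 (Rc3h2). For Zc3h12a at 90 min with IL-2 the range was -0.08 to 0.94, and for Zfp36l1 between the cytokines it was -0.16 to 0.51 at 90 min and -0.07 to 0.83 at 4 hr. Without unstimulated replicate 1 and with the block, Zc3h12a was 0.23 and 0.19 and Rc3h1 0.30 and 0.18 at 4 hr with IL-2 and IL-2-REH. The cause was not tested. With 3 libraries a group, intervals of the Zfp36 family spanned close to 2 log2 units, which limits what the comparison of the cytokines can show.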
